A study of Mus musculus with 3 samples.

Results

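NR2F2 binding near the genes that make, break down and carry retinoic acid was read from chromatin immunoprecipitation sequencing (ChIP-seq) of whole mouse testes. The 9 genes were Rdh10, Dhrs3, Aldh1a1, Aldh1a2, Aldh1a3, Cyp26a1, Cyp26b1, Crabp1 and Crabp2. A peak was assigned to a gene when its nearest transcription start site (TSS), among curated RefSeq models, belonged to that gene, or when it lay within 100 kb of that gene's TSS. This gave 19 of the 10069 peaks in the data, each 300 bp wide on the mm10 genome build, and 7 of the 9 genes had at least 1 of them. Aldh1a1 and Cyp26a1 had none. For 10 of the 19 peaks the retinoic acid gene was itself the nearest gene, and for the other 9 another gene's TSS lay closer.

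The testes came from CD-1 embryos at E14.5, in days of embryonic development, an outbred stock for which the labels name no mutation, and were freed of the mesonephros. There were 2 NR2F2 ChIP libraries from independent experiments, made from chromatin of 30 pooled testes, and 1 input library of testis DNA without antibody selection. Summed over all peaks, the libraries held 426784, 364261 and 73251 reads in ChIP replicate 1, ChIP replicate 2 and the input. These sums are not sequencing depths, so a ratio of ChIP to input is known only up to a depth factor. A count adds up every cell type of the testis, and binding in fewer cells cannot be told apart from less binding per cell. No cell type marker can be checked in these data.

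Retinoic acid is a vitamin A derivative that acts through nuclear receptors. RDH10 oxidises retinol to retinaldehyde, DHRS3 turns retinaldehyde back into retinol, and the ALDH1A enzymes oxidise retinaldehyde to retinoic acid. CYP26 enzymes break retinoic acid down, and in the fetal testis CYP26B1 is known for keeping germ cells from entering meiosis. CRABP1 and CRABP2 bind retinoic acid in the cytoplasm, and CRABP2 can carry it to its receptor in the nucleus. NR2F2 (COUP-TFII) is an orphan nuclear receptor of interstitial cells, and like the retinoic acid receptors it binds pairs of a short hexamer, AGGTCA or a close variant.

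The sequences below are of the mm10 plus strand, with AGGTCA or GGGTCA on either strand in capitals. They show, for each gene that was the nearest gene of a peak, its peak with the highest summed ChIP count. Both peaks that held a longer NR2F2 site (AGAGGTCA or AGGGGTCA) are also given. The remaining Cyp26b1 peak was added after its hexamers were seen. Where a peak overlapped untranslated bases, only its longest stretch without them is given.
Dhrs3, 106763 bp downstream, chr4:144999900-145000199: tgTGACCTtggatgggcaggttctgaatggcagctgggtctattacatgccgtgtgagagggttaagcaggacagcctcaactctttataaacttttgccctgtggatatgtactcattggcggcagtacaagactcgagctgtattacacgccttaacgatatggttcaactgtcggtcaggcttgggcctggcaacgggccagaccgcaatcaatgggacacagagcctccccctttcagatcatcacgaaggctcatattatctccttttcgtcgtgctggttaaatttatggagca
Aldh1a2, at the TSS, chr9:71215847-71216062: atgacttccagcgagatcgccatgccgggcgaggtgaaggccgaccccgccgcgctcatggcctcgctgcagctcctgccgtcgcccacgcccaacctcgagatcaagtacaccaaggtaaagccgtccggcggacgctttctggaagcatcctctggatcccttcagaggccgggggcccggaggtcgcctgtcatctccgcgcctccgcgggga
Aldh1a3, at the TSS, chr7:66427207-66427412: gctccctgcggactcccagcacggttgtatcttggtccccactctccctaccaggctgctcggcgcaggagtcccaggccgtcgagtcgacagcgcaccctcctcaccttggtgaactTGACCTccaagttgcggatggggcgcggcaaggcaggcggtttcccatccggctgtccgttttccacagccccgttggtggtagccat
Cyp26b1, 30505 bp downstream, chr6:84563006-84563305: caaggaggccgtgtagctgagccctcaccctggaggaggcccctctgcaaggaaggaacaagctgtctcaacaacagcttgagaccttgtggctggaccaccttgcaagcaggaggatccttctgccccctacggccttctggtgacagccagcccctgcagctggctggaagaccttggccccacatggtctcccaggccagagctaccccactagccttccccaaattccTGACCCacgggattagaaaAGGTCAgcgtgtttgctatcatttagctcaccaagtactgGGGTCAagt
Cyp26b1, 84190 bp downstream, chr6:84509321-84509620: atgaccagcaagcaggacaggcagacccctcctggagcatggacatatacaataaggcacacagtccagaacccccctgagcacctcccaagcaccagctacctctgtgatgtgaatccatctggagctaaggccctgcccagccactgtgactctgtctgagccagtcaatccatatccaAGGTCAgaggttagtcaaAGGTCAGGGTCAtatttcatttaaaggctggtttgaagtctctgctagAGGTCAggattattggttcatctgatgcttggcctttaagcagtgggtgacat
Cyp26b1, 36425 bp upstream, chr6:84630333-84630632: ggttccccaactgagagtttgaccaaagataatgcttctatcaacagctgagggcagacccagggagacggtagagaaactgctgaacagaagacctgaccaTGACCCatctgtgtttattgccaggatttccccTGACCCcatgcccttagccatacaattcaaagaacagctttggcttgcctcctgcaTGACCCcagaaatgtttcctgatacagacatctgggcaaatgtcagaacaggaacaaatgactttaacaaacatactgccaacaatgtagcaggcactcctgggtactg
Crabp1, 65370 bp upstream, chr9:54699079-54699282: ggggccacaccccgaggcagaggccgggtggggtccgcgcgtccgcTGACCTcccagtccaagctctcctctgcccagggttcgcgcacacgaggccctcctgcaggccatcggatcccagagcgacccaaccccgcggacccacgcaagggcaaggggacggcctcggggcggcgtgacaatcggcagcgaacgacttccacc
Crabp1, 64619 bp upstream, chr9:54699830-54700129: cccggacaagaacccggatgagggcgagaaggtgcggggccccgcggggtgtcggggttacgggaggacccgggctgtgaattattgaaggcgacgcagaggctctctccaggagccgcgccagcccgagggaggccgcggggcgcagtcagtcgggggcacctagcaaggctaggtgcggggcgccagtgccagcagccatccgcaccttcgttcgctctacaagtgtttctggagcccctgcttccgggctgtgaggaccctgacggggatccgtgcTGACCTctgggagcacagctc

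The hexamer AGGTCA or GGGTCA occurred in 11 of the 19 peaks (57.9%), beside 58.9% of the 10064 peaks on assembled chromosomes. The 3 peaks of Cyp26b1 held 4, 3 and 3 of them and were the only ones of the 19 with more than 1. Among all peaks, 6.66% held 3 or more. The longer site occurred in 2 of the 19 (10.5%) and in 10.5% of all peaks. In the Cyp26b1 peak 84190 bp downstream it read AGAGGTCA on the plus strand, and in the Crabp1 peak 64619 bp upstream it read AGAGGTCA on the minus strand. Each longer site contains a hexamer, so these counts overlap.

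Direct repeats were also searched, as any pair drawn on the same strand from AGGTCA and GGGTCA and the variants AGTTCA and GGTTCA, with 0 to 5 bases between the members. They occurred in 2 of the 19 peaks (10.5%) and in 6.15% of all peaks. Both had no base between the hexamers, an arrangement found in 1.72% of all peaks. The Cyp26b1 peak 84190 bp downstream held AGGTCA followed directly by GGGTCA on the plus strand at chr6:84509520-84509531. The Aldh1a3 peak at the TSS held AGGTCAAGTTCA on the minus strand at chr7:66427319-66427330, within coding exon 1. A match of letters is a description and does not show that a protein was bound there.

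**Figure D1:**
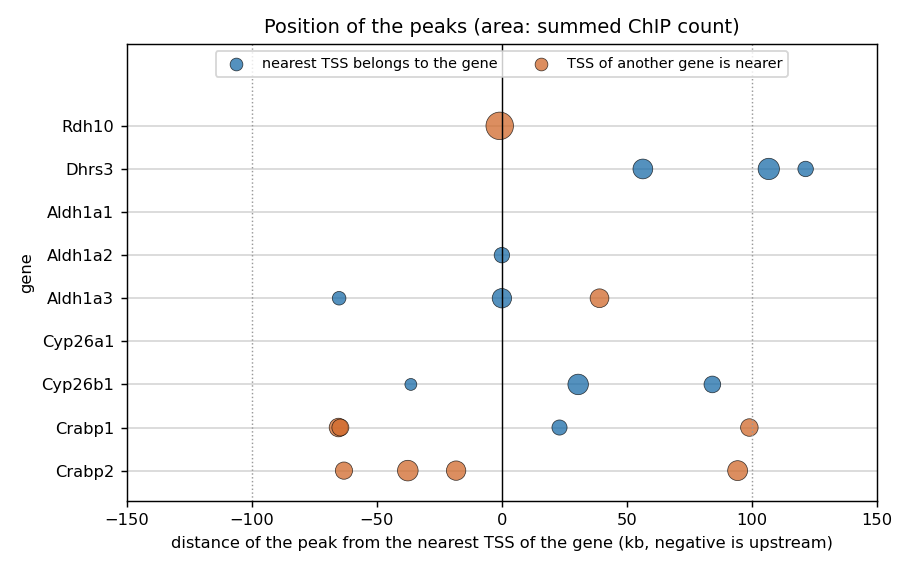
Position of the 19 peaks relative to the nearest TSS of each retinoic acid gene (x axis, kb, negative is upstream), with 1 row per gene, point area proportional to the summed ChIP count, and colour showing whether that gene's TSS or another gene's was nearest. Aldh1a2 and Aldh1a3 have a peak at distance 0, the rows of Aldh1a1 and Cyp26a1 are empty, and 2 Dhrs3 peaks lie beyond the dotted 100 kb lines.

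Each ChIP replicate exceeded the input at 19 of the 19 peaks, as at 99.9% of all peaks. At libraries taken as equally deep, 16 of the 19 (84.2%) passed the edgeR quasi-likelihood test above input at an adjusted p under 0.05, beside 80.7% of all peaks. The 3 without a call were the TSS peaks of Aldh1a2 and Aldh1a3 and the Cyp26b1 peak 30505 bp downstream. Peaks were called by the authors on the same ChIP reads, so a call above input is not independent evidence of binding. If the ChIP libraries were 2 times deeper than the input, no peak of the 19 passed in edgeR (8 had an unadjusted p under 0.05), nor did any of the 10069 (3928 at the unadjusted p), and if 2 times shallower, 19 of the 19 and 9858 of the 10069 passed.

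The peaks were then compared with the typical peak, with libraries scaled to each other over all peaks by the trimmed mean of M values (TMM), so that depth drops out. In edgeR 0 of the 19 lay above the typical peak, beside 1.53% of all peaks, and 0 lay below it, beside 0.0497%. At an unadjusted p under 0.05 there was 1 of the 19, beside 10.4% of all peaks. DESeq2 also called 0 and gave 0 at the unadjusted p, with no adjusted p for 18 of the 19. Over all peaks it called 22 above and 0 below, had 212 at the unadjusted p, and gave no adjusted p for 9370. The median ChIP to input ratio, with 0.5 added to each count, was 5.29 ± 0.220 (SD, n = 2 ChIP replicates) over the 19 peaks and 4.75 ± 0.505 over all peaks.

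The 2 ChIP replicates were compared peak by peak with an exact two-sided binomial test, which allows for counting error only. It called 0 of the 19 after adjustment over all peaks, beside 0.0993% of all, and 2 of the 19 (10.5%) at an unadjusted p under 0.05, beside 8.83%. Those were the TSS peak of Aldh1a2 and the Crabp1 peak 64619 bp upstream, both higher in replicate 2. Spearman's rho between replicates was 0.55 over the 19 peaks and 0.818 over all peaks, a description across peaks that share libraries.

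**Figure D2:**
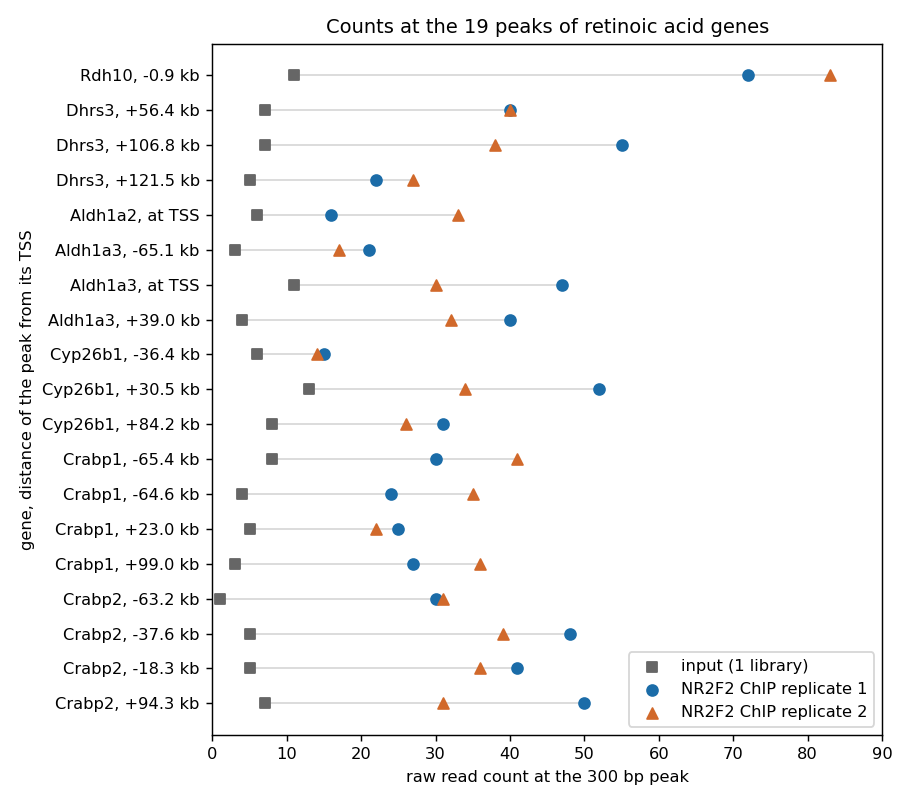
Raw read counts (x axis) at each of the 19 peaks (y axis, gene and distance from its TSS) in the input library (squares), ChIP replicate 1 (circles) and ChIP replicate 2 (triangles). Input counts run from 1 to 13 and every ChIP count lies to the right of the input count at its peak. The Rdh10 peak, with 72 and 83 reads, stands farthest to the right.

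Rdh10, which carries out the first oxidation of retinol, had a single peak at chr1:16104711-16105010, 872 bp upstream of its TSS. It held 11 reads in the input, 72 in ChIP replicate 1 and 83 in ChIP replicate 2, the highest ChIP counts of the 19, and its summed ChIP count was above that of 94.7% of all peaks. The peak lay outside annotated genes and was closer to the TSS of Rpl7, a ribosomal protein gene read in the opposite direction, at 278 bp. Its log2 ratio to input at equal depth was 2.80 ± 0.31 (SE, adjusted p = 0.0311, edgeR). Relative to the typical peak its log2 ratio was 0.50 ± 0.45 (SE, adjusted p = 0.813, edgeR), a difference near its error.

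Dhrs3, the enzyme that works against RDH10, had 3 peaks, all downstream of the gene, and no other gene's TSS lay within 100 kb of its own. The first, at chr4:144949527-144949826, was 56390 bp from the TSS, 21318 bp past the gene's end and outside annotated genes. It held 7, 40 and 40 reads in the input and the 2 ChIP replicates. The other peaks were farther than 100 kb and were assigned because no curated TSS was closer. Both lay in intron 67 of Vps13d, the neighbouring gene, which has 70 exons in the model used. The peak at chr4:144999900-145000199 held 7, 55 and 38 reads, and its log2 ratio to input was 2.71 ± 0.51 (SE, adjusted p = 0.0342, edgeR). Relative to the typical peak it was 0.41 ± 0.57 (SE, adjusted p = 0.903, edgeR). The last, at chr4:145014639-145014938 and 121502 bp from the TSS, held 5, 22 and 27 reads. The replicates thus were equal at the first peak and differed in opposite directions at the others.

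The 3 ALDH1A enzymes, which make retinoic acid, differed in what lay near them. Aldh1a1 had no peak within 100 kb. The closest, at chr19:21144668-21144967, was 542700 bp from its TSS, was nearest to 4930554I06Rik, and held 3, 15 and 20 reads in the input and the 2 ChIP replicates.

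Aldh1a2 had 1 peak, at chr9:71215763-71216062, which overlapped its TSS, with its midpoint in coding exon 1 of 14. It held 6 reads in the input, 16 in ChIP replicate 1 and 33 in ChIP replicate 2. Replicate 2 was the higher of the ChIP libraries here, whereas replicate 1 was higher at 69.3% of all peaks. The exact binomial test of the replicates gave p = 0.00371 before adjustment and 0.273 after it. The ratio to input was 2.67 in replicate 1, with an exact 95% interval of 0.991 to 8.32, and 5.50 in replicate 2, with an interval of 2.28 to 16.1. The intervals overlap and cover counting error only. The log2 ratio to input over both was 2.01 ± 0.80 (SE, adjusted p = 0.107, edgeR), which did not pass, although it passed with the ChIP replicates scaled to each other (adjusted p = 0.000560). Its log2 ratio to the typical peak was -0.27 ± 0.67 (SE, adjusted p = 0.953, edgeR). Computed from 1 replicate relative to the median of all peaks, it was 0.23 without ChIP replicate 1 and -1.01 without ChIP replicate 2. Its direction thus depended on the library.

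Aldh1a3 had 3 peaks. The one at chr7:66427207-66427506 overlapped its TSS, with its midpoint in coding exon 1 of 13, and held 11, 47 and 30 reads in the input and the 2 ChIP replicates. Its log2 ratio to input was 1.80 ± 0.52 (SE, adjusted p = 0.0604, edgeR), which did not pass at equal depth, and relative to the typical peak it was -0.51 ± 0.51 (SE, adjusted p = 0.840, edgeR). A second peak, at chr7:66492600-66492899, lay 65123 bp upstream, outside annotated genes, with Aldh1a3 as the nearest gene. It had 3, 21 and 17 reads, fewer than the peak at the TSS in every library. The remaining peak, at chr7:66388130-66388429, was 2463 bp past the end of Aldh1a3 and overlapped the TSS of Lrrk1, with its midpoint in the 5' UTR of that gene. It held 4, 40 and 32 reads. Just outside the 100 kb limit a further peak, at chr7:66292876-66293175 in an intron of Lrrk1 and 134302 bp from the TSS of Aldh1a3, held 7, 61 and 36 reads.

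Aldh1a2 and Aldh1a3 were the only genes of the 9 with a peak over their own TSS (22.2%), beside 11.3% of the 21000 protein-coding genes. Neither of these peaks was called above input at equal depth, and both passed with the replicates scaled to each other or with robust fitting, as did 9853 and 9816 of all 10069 peaks.

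Cyp26a1, a retinoic acid breakdown enzyme whose promoter is a textbook target of the retinoic acid receptors, had no peak within 100 kb. The closest peak, at chr19:37550767-37551066, was 146742 bp upstream of its TSS, in intron 1 of Exoc6 and 349 bp from that gene's TSS. It held 5, 28 and 21 reads in the input and the 2 ChIP replicates. The RefSeq promoter window of Cyp26a1 (GRCm38.p6, from 250 bases before to 50 after the start) held the direct repeat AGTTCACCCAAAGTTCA on the minus strand of the window, 32 bases before the start, with 5 bases between its hexamers. Of 32851 promoter windows, 0.907% held a direct repeat with 0 to 5 bases between hexamers, and 0.0974% held one with 5. The windows of Aldh1a1, Aldh1a2, Cyp26b1, Dhrs3 and Crabp1 held no match.

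Cyp26b1, the breakdown enzyme of the fetal testis, had 3 peaks on both sides of the gene and was the nearest gene of all 3. No other gene's TSS lay within 100 kb of its own. The peak at chr6:84630333-84630632, 36425 bp upstream and inside intron 20 of Exoc6b (22 exons), held 6 reads in the input, 15 in ChIP replicate 1 and 14 in ChIP replicate 2. Its summed ChIP count was the lowest of the 19 and exceeded that of 1.02% of all peaks. The exact 95% interval of its ratio to input included 1 in both replicates, at 0.917 to 7.86 and 0.842 to 7.41. It passed above input at equal depth (adjusted p = 0.0426, edgeR), and did not pass with robust fitting or with the replicates scaled to each other, and DESeq2 gave it no adjusted p.

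The peak at chr6:84563006-84563305, 30505 bp downstream of the Cyp26b1 TSS, 8109 bp past the gene's end and outside annotated genes, had the highest ChIP counts of the 3. It held 13 reads in the input, the most of the 19 peaks, with 52 and 34 in the ChIP replicates. Its log2 ratio to input was 1.72 ± 0.49 (SE, adjusted p = 0.0591, edgeR), and relative to the typical peak it was -0.59 ± 0.48 (SE, adjusted p = 0.779, edgeR). The peak at chr6:84509321-84509620, 84190 bp downstream and outside annotated genes, held 8, 31 and 26 reads and passed above input in edgeR (adjusted p = 0.0332) but not in DESeq2 (adjusted p = 0.0786). With fewer reads, its log2 ratio to input was 1.82 ± 0.33 (SE), which differed from the 1.72 of the peak with the highest counts by less than either SE. The log2 ratios of all 3 Cyp26b1 peaks were below 0 relative to the typical peak, at -1.03, -0.59 and -0.48, and none passed that test. The median of this log2 ratio was 0.016 over all peaks, so a value below 0 is common. Among the 19, peaks of Aldh1a2, Aldh1a3, Dhrs3 and Crabp1 also lay below 0. The 3 Cyp26b1 peaks are the ones that held 3 or more hexamers each, as printed above. A link between hexamers and the ratio was not tested.

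**Figure D3:**
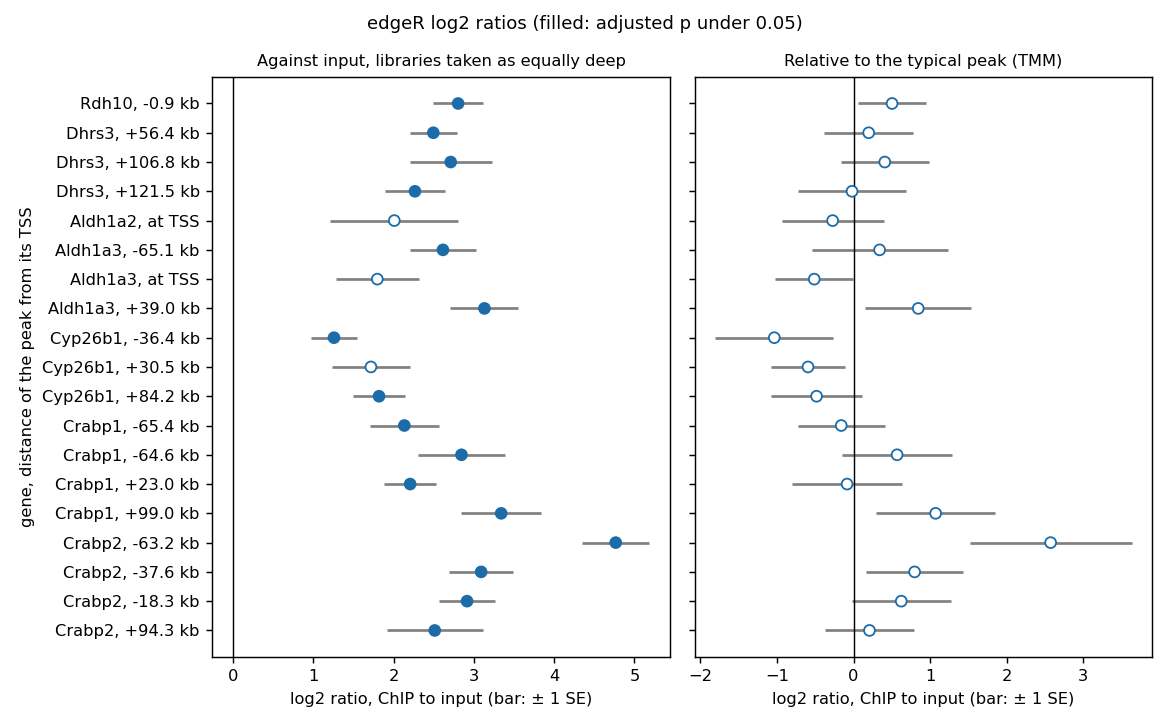
edgeR log2 ratios with their SE (bars) for the 19 peaks, against the input at equal library sizes (left) and relative to the typical peak after TMM scaling (right). Filled points mark an adjusted p under 0.05, which 16 peaks have on the left and 0 on the right. The 3 Cyp26b1 points lie left of 0 in the right panel, as do points of Aldh1a2, Aldh1a3, Dhrs3 and Crabp1.

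Crabp1, a cytoplasmic binder of retinoic acid, had 4 peaks, and only 1 of them had Crabp1 as its nearest gene. That peak, at chr9:54787794-54788093, was 23046 bp downstream of the TSS, 14684 bp past the gene's end and outside annotated genes, with 5, 25 and 22 reads in the input and the 2 ChIP replicates. The peak at chr9:54699079-54699378, 65370 bp upstream, overlapped the TSS of Dnaja4, which encodes a heat shock cochaperone, and held 8, 30 and 41 reads. Its log2 ratio to input was 2.13 ± 0.43 (SE, adjusted p = 0.0364, edgeR), and relative to the typical peak it was -0.16 ± 0.57 (SE, adjusted p = 0.969, edgeR). The latter turned in direction by library, at 0.15 without ChIP replicate 1 and -0.51 without ChIP replicate 2, relative to the median of all peaks. A neighbouring peak in intron 2 of Dnaja4, at chr9:54699830-54700129, held 4, 24 and 35 reads, with an exact binomial p of 0.0494 between replicates (0.564 adjusted). The last, at chr9:54863752-54864051, was 99004 bp downstream, just inside the limit, and overlapped the TSS of Ireb2, which encodes an iron regulatory protein. It held 3, 27 and 36 reads. Replicate 2 was the higher at the 3 peaks near other genes and replicate 1 at the peak nearest to Crabp1, and no difference passed after adjustment. The Crabp2 peaks, all with another gene nearer, did not follow this split. Replicate 1 was the higher there except at the peak near Prcc.

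Crabp2, which delivers retinoic acid to its receptor, also had 4 peaks, but Crabp2 was the nearest gene of none of them. Its TSS had those of 10 other genes within 100 kb, the most of the 9. The peak with the highest summed ChIP count, at chr3:87910755-87911054, was 37639 bp upstream in intron 1 of Hdgf, a growth factor gene, and held 5, 48 and 39 reads in the input and the 2 ChIP replicates. Its log2 ratio to input was 3.09 ± 0.40 (SE, adjusted p = 0.0311, edgeR), and relative to the typical peak it was 0.80 ± 0.63 (SE, adjusted p = 0.767, edgeR). The peak closest to Crabp2, at chr3:87930074-87930373 and 18320 bp upstream, overlapped the start sites of Isg20l2 and Rrnad1 and held 5, 41 and 36 reads. The peak 94304 bp downstream, at chr3:88042997-88043296, overlapped the TSS of Gpatch4 and held 7, 50 and 31 reads.

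The remaining Crabp2 peak, at chr3:87885208-87885507, was 63186 bp upstream and 55 bp from the TSS of Prcc, in whose 5' UTR its midpoint lay. It held 1 read in the input, 30 in ChIP replicate 1 and 31 in ChIP replicate 2, and is given in full because its ratio, seen afterwards, was the highest of the 19. The ratios to input of 30.0 and 31.0 had exact 95% intervals of 4.99 to 1224 and 5.17 to 1263, since they rest on 1 input read. This was the single peak of the 19 below the unadjusted threshold relative to the typical peak, at an edgeR log2 ratio of 2.58 ± 1.06 (SE, edgeR adjusted p = 0.284, unadjusted p = 0.0150).

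**Figure D4:**
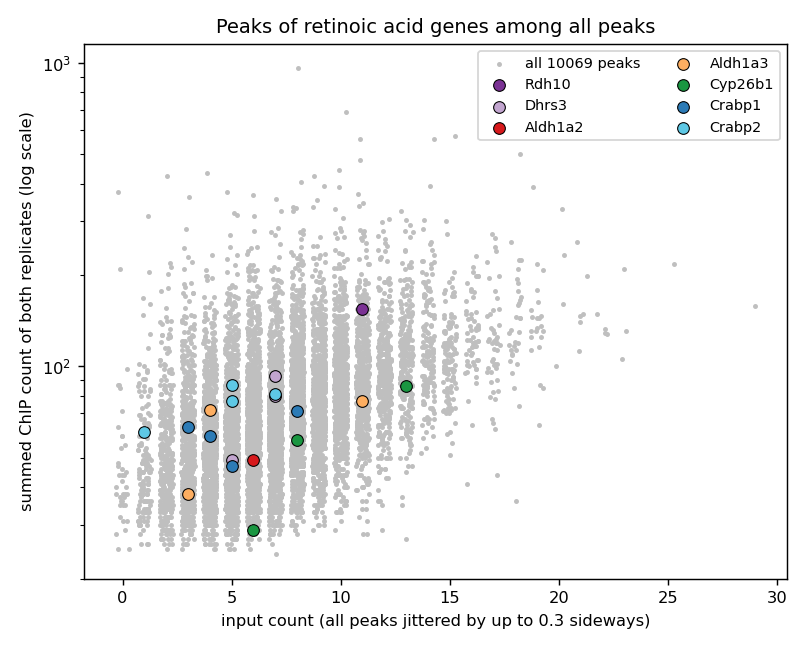
Summed ChIP count of both replicates (y axis, log scale) against the input count (x axis) for all 10069 peaks in grey, with the 19 peaks of retinoic acid genes coloured by gene. Their summed counts run from 29 to 155, inside the range of 24 to 959 over all peaks.

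The peaks with a retinoic acid gene nearest and those with another gene nearer overlapped in their ratios and differed in their medians. The median ratio to input over the 10 peaks with the retinoic acid gene nearest was 4.33 ± 0.307 (SD, n = 2 ChIP replicates), and over the other 9 it was 7.38 ± 0.229. With 5 added to each count instead of 0.5, these medians were 2.90 and 4.50. Both replicates are divided by the same input library, whose median count was 6.5 at the first kind and 5 at the second. All 9 peaks of the second kind lay within 3905 bp of some TSS, whereas 8 of the 10 of the first kind lay over 10 kb from any. At those 8 the median was 4.45 ± 0.129, beside 4.29 ± 0.251 over the 3309 peaks that far from a TSS. At the 11 peaks up to 10 kb from a TSS it was 6.96 ± 0.317, beside 4.99 ± 0.641 over 6755. With 5 added to each count, the first pair turned in direction, at 2.90 beside 2.97, and the second was 4.35 beside 3.44. The difference between the kinds was not tested.

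By gene, 7 of the 9 (77.8%) had a peak within 100 kb, beside 69.7% of protein-coding genes, and 5 of the 9 (55.6%) were the nearest gene of a peak, beside 33.2%. Having 3 or more peaks within 100 kb was true of Aldh1a3, Cyp26b1, Crabp1 and Crabp2 and of 26.7% of protein-coding genes. By distance to any TSS, 7 of the 19 peaks (36.8%) overlapped a TSS, beside 24.2% of all peaks, and 8 of the 19 lay over 10 kb away, beside 3309 of the 10064.

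Other genes of the retinoid pathway were examined from a list of 30, covering receptors, transport, storage, further oxidation and reduction enzymes, cleavage, Cyp26c1 and target genes. A peak lay within 100 kb of 22 of the 30 (73.3%), and their 52 peaks included 39 (75.0%) above input at equal depth, beside 80.7% of all peaks. Relative to the typical peak edgeR and DESeq2 both called 0 of the 52, beside 1.53% of all peaks above it and 0.0497% below it in edgeR. At an unadjusted p under 0.05 edgeR had 5 and DESeq2 0 of the 52, beside 1051 and 212 of the 10069, and DESeq2 gave no adjusted p for 48, beside 9370. The receptors had 19 peaks, of which 16 passed above input. Enzymes of oxidation and reduction had 12 with 9 passing, transport and uptake 10 with 7, storage 6 with 3, targets 5 with 4, and cleavage 1 with 1. A peak shared by Dhrs4 and Rec8 is counted under both of their roles. The genes without a peak were Fabp5, Rdh11, Dhrs9, Adh1, Aldh8a1, Cyp26c1, Rxra and Rxrg. Cyp26c1 is the neighbour of Cyp26a1, and both had the same Exoc6 peak as their closest.

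Of the receptor genes, Rarb had its peak with the highest summed ChIP count over its own TSS, at chr14:16575280-16575579 in the 5' UTR. It held 11, 44 and 25 reads in the input and the 2 ChIP replicates and did not pass above input at a log2 ratio of 1.64 ± 0.61 (SE, adjusted p = 0.0938, edgeR). This peak held a direct repeat with 5 bases between its hexamers, as 0.517% of all peaks did. By summed ChIP count, the highest peaks of Rara, Rarg and Rxrb had another gene nearest. That of Rara, at chr11:99040851-99041150, was 75979 bp downstream near Igfbp4 and held 10, 63 and 48 reads (adjusted p = 0.0315, edgeR). Its ratios to input were 6.30 and 4.80. A pair of other Rara peaks, named after their values were seen, both had a summed count of 107 against 111. The peak in intron 2 of Rara itself, at chr11:98951585-98951884, held 6, 51 and 56 reads, with ratios of 8.50 and 9.33. The peak at chr11:99055561-99055860, nearest to Igfbp4, held 4, 63 and 44 reads, with ratios of 15.8 and 11. The highest peak of Rarg, at chr15:102331708-102332007, was 74186 bp upstream in a coding exon of Myg1 and held 10, 60 and 41 reads (adjusted p = 0.0379, edgeR). The highest peak of Rxrb, at chr17:34122325-34122624, was 89975 bp downstream in the 5' UTR of Brd2 and held 17, 149 and 98 reads (adjusted p = 0.0325, edgeR). Closer peaks of both genes were also named after their values were seen. Rarg was the nearest gene of a peak 249 bp upstream, with 7, 31 and 26 reads. The peak 3711 bp upstream of Rxrb, over the TSS of H2-Ke6, held 9, 92 and 78 reads. Its ratios to input were 10.2 and 8.67, beside 8.76 and 5.76 at the Brd2 peak.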

How the data were processed

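The authors trimmed the reads (Trim Galore 0.6.7), mapped them to mm10 with Bowtie2, removed duplicates (Picard 1.110), merged both ChIP replicates to call peaks (HOMER 4.11.1) and resized peaks to 300 bp. The deposited values are raw read counts per peak and library; no source used here states how reads were assigned to peaks. The genes and lists were chosen with earlier results of these data known. Distances ran from the nearer edge of a peak to the curated RefSeq TSS of GRCm38.p6 (45756 transcripts), for 10064 peaks on assembled chromosomes. Tests covered all 10069 peaks without a filter, with Benjamini-Hochberg adjustment at 0.05: edgeR 4.0.16 quasi-likelihood tests with equal library sizes and with TMM (R 4.3.3), checked on simulated data, and an exact binomial test between replicates (scipy 1.17.1). The single input was assumed to vary like the ChIP libraries. The study's methods call the ChIP libraries biological replicates without saying whether each had its own pool of testes. The exact binomial p-values take in counting error only. At equal depth the edgeR p-values take in the spread between these libraries, including any difference in their depth. Relative to the typical peak they rest on a spread estimated over all peaks together. DESeq2 1.42.0, other scalings, a minimum of 10 input counts and other distances were alternatives. Every peak given by the rule was described. Full statistics went to the peak with the highest summed ChIP count of each gene and to peaks past the test against the typical peak or between replicates (none). Statistics of other peaks, among them the Cyp26b1 peaks 36425 bp upstream and 84190 bp downstream, were added after their values were seen. Sequences went to the highest such peak of each gene that was the nearest gene of a peak, and to peaks with the longer site. For receptors, the peak with the highest summed ChIP count was named, and for Cyp26c1, which had no peak, the closest. Other peaks of Rara, Rarg and Rxrb were added after their values were seen. Intervals are exact (Clopper-Pearson, 95%). Sequences came from RefSeq GRCm38.p6, whose chromosomes match mm10. Promoter windows of Aldh1a3, Rdh10 and Crabp2 were not analysed here.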

Additional observations from a re-analysis of the deposited data

How the results depend on the processing

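Of the 19 peaks, 16 passed above input at equal depth, 18 with the ChIP replicates scaled to each other (9853 of all 10069 peaks) and 18 with robust fitting (9816 of all), both of which added the 3 uncalled peaks (the TSS peaks of Aldh1a2 and Aldh1a3 and the Cyp26b1 peak 30505 bp downstream) and lost the Cyp26b1 peak 36425 bp upstream. DESeq2 passed 11, all among the 16, and gave no adjusted p for 1 (Cyp26b1, 36425 bp upstream), beside 6146 and 692 of all peaks. It lost 4, namely Aldh1a3 65123 bp upstream, Crabp1 23046 bp, Cyp26b1 84190 bp and Dhrs3 121502 bp downstream. With ChIP taken as 2 times deeper 0 passed and as 2 times shallower 19, and with at least 10 input counts 3 of the 3 still tested, beside 2149 of 2427. The adjusted p ranged over these settings from 0.000560 to 0.371 for Aldh1a2, from 8.21e-05 to 0.298 for the Aldh1a3 TSS peak, and from 0.0120 to 0.688 for the Cyp26b1 peak 36425 bp upstream. Against the typical peak 0 passed in either direction under every alternative run, although scaling without TMM moved the median log2 ratio of all peaks from 0.016 to -0.099. Of these, robust fitting gave the same counts as the main run, and DESeq2 gave no adjusted p for 18 of the 19. The minimum of 10 input counts left only 3 to test. The replicate test gave 0 under both expected shares. Within 50 kb there were 9 peaks and by nearest TSS only 10, while 19 remained from peak midpoints. Peaks with the longer site numbered 2 and those with the hexamer 11. The median ratio of 5.29 (4.75 over all peaks) was 3.39 (3.28 over all peaks) with 5 added to each count, by construction nearer to 1, and 5.13 to 5.44 with 1 ChIP replicate left out. Leaving out a replicate left no spread to test with, so only values were computed. No paired analysis was possible because the input carries no replicate number. Input counts of 1 to 13 limit every ratio.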
